A study of Rattus norvegicus with 12 samples.

Results

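The genes described here are C1qb and C1qc, which encode the B and C chains of the complement recognition protein C1q, and Tlr3 and Tlr4, which encode Toll-like receptors 3 and 4. They were chosen by symbol: of 3939 genes named by the array's annotation, these 4 were taken, each with 1 probe of the 7200. Rats were given lipopolysaccharide (LPS), the outer-membrane glycolipid of Gram-negative bacteria, and their total RNA was set against control RNA at 2 h and 6 h on 2-colour arrays. Blood as the source is named in the series title and nowhere else in the labels. Ratios give no expression level, so the tissue could not be checked against its markers. The sources used here do not give strain, age, sex, LPS dose, route, or what the control rats received.

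Each time had 3 rats. RNA of each rat was hybridised on 2 arrays with the control pool of that time, 12 arrays in all. On the arrays called fluor in the labels the control pool was in channel 1 and the LPS rat in channel 2, and on the arrays called flip the channels were exchanged. Since both arrays of a rat carry identical RNA samples, their mean was taken and rats were the replicates, 3 at each time. Each pool is a single control sample shared by the 3 rats of its time, so a test against 0 does not include the spread among control rats, and a difference between 6 h and 2 h can come from the pools as well. The p-values measure the spread between these rats. The rats were numbered 1, 2 and 3 at 2 h and 2, 4 and 6 at 6 h, and the rats numbered 2 were counted as separate samples, a point the labels do not settle.

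Each value is a log2 ratio of the channels, centred near 0 before deposit. The ratios were read as LPS over control pool, a direction that is likely and not settled. Il1b, the LPS-induced cytokine interleukin-1 beta, and Irf1, an inducible transcription factor, had ratios above 0 in both orientations of every rat, 12 arrays of 12. Il1r2, Lcn2 and Zfp36, other LPS-induced genes checked for direction, also had them on 12. Sod2 did on 10, Tnf on 8 and Nfkbia on 3. Where any of these genes is counted in a list below, its sign is no separate support for the direction read. Over all probes a rat's fluor and flip arrays correlated at between -0.23 and 0.25, while arrays of 1 orientation correlated at between 0.38 and 0.66. The alternative, that the sign of the flip arrays must be turned before averaging, is called the turned reading and is given beside each of the 4 genes. A turned mean is fixed by the difference between a rat's fluor and flip arrays, so it restates that difference and is no separate result. An adjusted p under 0.05 in limma's test, corrected by the Benjamini-Hochberg method over all 3939 genes, was the threshold for writing that a gene rose or fell.

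C1q is the recognition unit of the classical complement pathway. It binds antibody on a target surface and, through the proteases C1r and C1s, starts the cleavage of C4, C2 and C3. Its A, B and C chains are made chiefly by macrophages and related myeloid cells, unlike most complement proteins, which come from the liver. Toll-like receptors are pattern receptors of innate immunity. Tlr4, with its partner MD-2 and the co-receptor CD14, senses LPS and signals through the adaptors MyD88 and TRIF, whereas Tlr3 senses double-stranded RNA in endosomes and signals through TRIF. In blood, Tlr4 is known from monocytes and neutrophils.

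The sequences upstream of the transcription start are shown for C1qb, Tlr4 and Tlr3, so that the 3 can be read side by side. No promoter entry was found for C1qc. In the RefSeq gene table of assembly GRCr8, C1qb, C1qc and C1qa lie next to each other. The promoter table of the same assembly matched 3 of the 4 genes. Each line is the 250 bases before the start, 5′ to 3′ on the gene's strand, and capitals mark GAGGAA on either strand, the core bound by the myeloid factor PU.1.
C1qb, chr5:154407828-154408077, minus strand: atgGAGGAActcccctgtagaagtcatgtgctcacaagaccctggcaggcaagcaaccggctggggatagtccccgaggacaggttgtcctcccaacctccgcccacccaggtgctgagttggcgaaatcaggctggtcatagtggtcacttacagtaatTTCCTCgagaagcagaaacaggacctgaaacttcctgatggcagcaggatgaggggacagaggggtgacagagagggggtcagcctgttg
Tlr4, chr5:85160997-85161246, plus strand: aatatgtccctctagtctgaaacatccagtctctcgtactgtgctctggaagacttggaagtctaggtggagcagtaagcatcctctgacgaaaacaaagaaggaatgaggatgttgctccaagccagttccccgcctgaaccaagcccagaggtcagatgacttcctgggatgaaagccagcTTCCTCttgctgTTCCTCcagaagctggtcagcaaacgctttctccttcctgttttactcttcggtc
Tlr3, chr16:53554666-53554915, plus strand: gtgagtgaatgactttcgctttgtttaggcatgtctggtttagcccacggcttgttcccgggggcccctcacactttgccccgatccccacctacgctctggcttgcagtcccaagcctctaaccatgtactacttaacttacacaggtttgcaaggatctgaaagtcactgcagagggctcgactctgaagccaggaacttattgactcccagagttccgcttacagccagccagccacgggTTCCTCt

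GAGGAA was found 2 times in the C1qb window, 247 to 242 and 90 to 85 bases before the start, the second on the opposite strand. In Tlr4 it was found 2 times, 67 to 62 and 55 to 50 bases before the start, both on the opposite strand. Tlr3 held 1 match, 7 to 2 bases before the start, also on the opposite strand. Of 27457 rat promoter windows of the same length, 23.2% hold GAGGAA on either strand, so these matches are a description. An interferon-stimulated repeat (GAAA, any 2 bases, GAAA; in 3.29% of windows), the AP-1 site TGANTCA (6.36%) and an NF-kappaB-like site (GGGA, any 2 bases, TTCC; 1.07%) were not in these 3 windows on either strand, and no matches of different motifs overlapped.

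C1qb was lower after LPS at both times, by a like amount. The rat means at 2 h were -0.25 in rat 1, -0.20 in rat 2 and -0.16 in rat 3. At 6 h they were -0.23 in rat 2, -0.17 in rat 4 and -0.21 in rat 6. All 6 rats lay below 0, and the ranges of the 2 times overlapped. The mean was -0.20 ± 0.04 at 2 h (SD, n = 3), a ratio to the pool of 0.868 (limma adjusted p = 0.00564), and -0.21 ± 0.03 at 6 h, a ratio of 0.867 (adjusted p = 0.00488). The 95% intervals of limma's fit were -0.28 to -0.13 at both times. Between the times the difference was -0.0017 ± 0.0428 (SE; 95% interval -0.10 to 0.10; adjusted p = 0.988). Among the 3939 genes 7.92% had a lower mean at 2 h and 6.83% at 6 h, and with the flip arrays turned 5.46% and 10.9%.

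The C1qb ratios were farther below 0 on the fluor arrays. On these it stood at -0.37, -0.27 and -0.51 in 2 h rats 1, 2 and 3, and at -0.40, -0.33 and -0.25 in 6 h rats 2, 4 and 6. On the flip arrays it stood at -0.13, -0.14 and 0.19 at 2 h, and at -0.062, -0.015 and -0.17 at 6 h. The fluor array was the lower of the pair in 6 of 6 rats, and 11 of 12 arrays lay below 0. Fluor minus flip averaged -0.30 ± 0.22 (SD, n = 6; two-sided exact sign-flip permutation p = 0.0313, the smallest that 6 rats allow; 0.125 after adjustment over the 4 genes). The size of that difference exceeded that of 87.5% of genes, against a median size of 0.12 over all genes. From the flip arrays alone, C1qb was at -0.024 at 2 h and -0.081 at 6 h (adjusted p = 0.853 and 0.408), and from the fluor arrays alone at -0.38 and -0.33, past the threshold at both times.

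Under the turned reading C1qb was at -0.18 at 2 h and -0.12 at 6 h, without passing (limma adjusted p = 0.0681 and 0.112). These values restate the fluor minus flip difference and are no separate sign of a fall. The call at 2 h was also lost with the fluor array of 2 h rat 3 left out (-0.087, adjusted p = 0.532) and missed the threshold after centring and scaling of the arrays (-0.17, adjusted p = 0.0538). At 6 h it was lost without the fluor array of 2 h rat 3 (adjusted p = 0.145), the flip array of 2 h rat 3 (0.0694), the fluor array of 6 h rat 2 (0.0635) or the fluor array of 6 h rat 4 (0.0760). It held at both times with any 1 rat left out, with adjusted p from 0.00721 to 0.0452.

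**Figure D1:**
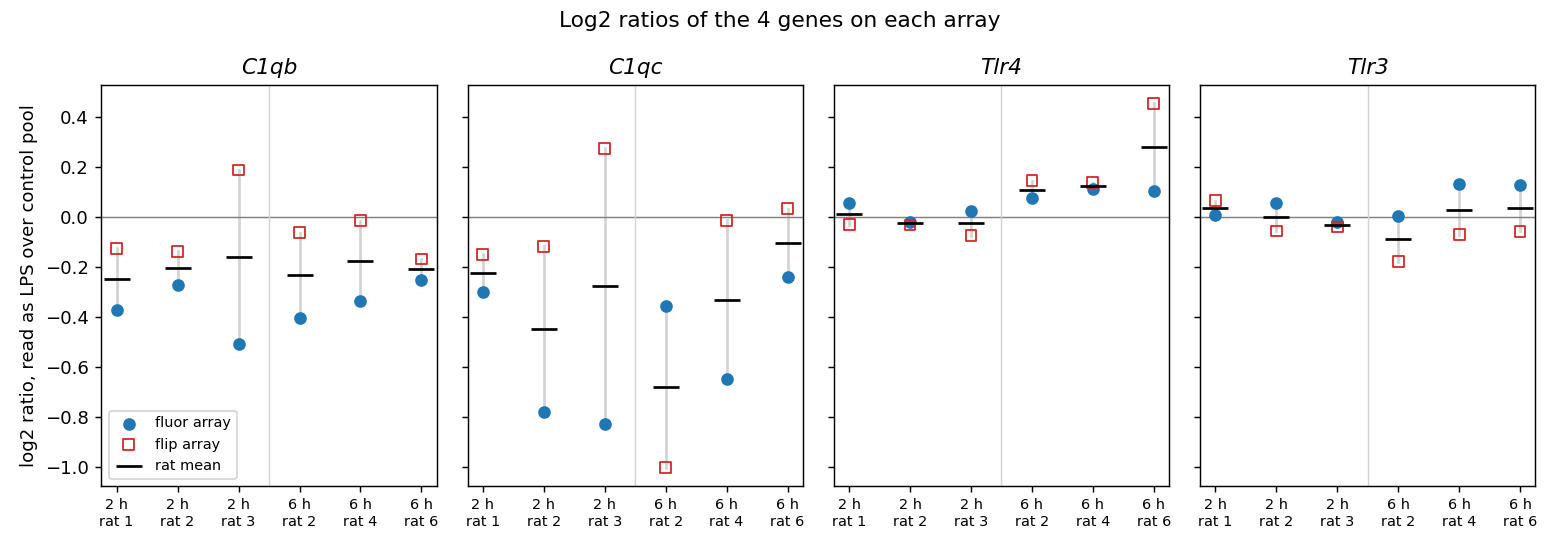
Log2 ratios of C1qb, C1qc, Tlr4 and Tlr3 (vertical axis, read as LPS over control pool) on the fluor array (filled circle) and flip array (open square) of each of 3 rats at 2 h and 3 rats at 6 h, with the rat mean as a bar. C1qb is lower on the fluor array in all 6 rats, C1qc has the widest pairs, and Tlr4 lies above 0 on all 6 arrays at 6 h.

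C1qc had lower ratios than C1qb on average and a wider spread between rats. Its rat means were -0.22, -0.45 and -0.28 in 2 h rats 1, 2 and 3, and -0.68, -0.33 and -0.10 in 6 h rats 2, 4 and 6. All 6 rats again lay below 0, and the 6 h rats spread over a wider range than the 2 h rats and enclosed it. At 2 h the mean of -0.32 ± 0.12 (SD, n = 3; ratio 0.803) missed the threshold, with a 95% interval of -0.55 to -0.079 (limma adjusted p = 0.0670). At 6 h C1qc fell, at -0.37 ± 0.29 (ratio 0.773; 95% interval -0.61 to -0.13; adjusted p = 0.0435). The difference between the times was -0.055 ± 0.141 (SE; 95% interval -0.39 to 0.28; adjusted p = 0.904). Of all genes 3.96% had a lower mean at 2 h and 3.10% at 6 h, and with the flip arrays turned 2.03% and 32.1%.

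The spread of C1qc lay within rats as much as between them. The fluor arrays read -0.30, -0.78 and -0.83 at 2 h and -0.35, -0.65 and -0.24 at 6 h, all below 0. The flip arrays read -0.15, -0.12 and 0.28 at 2 h and -1.0, -0.013 and 0.034 at 6 h. The lowest of the 12 values was thus the flip array of 6 h rat 2, the 1 rat in which the flip array was the lower of the pair. Fluor minus flip averaged -0.36 ± 0.60 (SD, n = 6; two-sided exact sign-flip permutation p = 0.188, adjusted 0.25). At 2 h the fluor arrays averaged -0.64 and the flip arrays 0.0037, so the mean of that time averages over unlike orientations.

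The call on C1qc at 6 h was the least secure of those made: it held in 11 of 30 alternative settings. Without 6 h rat 2 the mean was -0.22 (limma adjusted p = 0.162) and without 6 h rat 4 -0.39 (0.126), and without 2 h rat 1 or 2 h rat 3, which set only the pooled spread, adjusted p was 0.0607 and 0.0605. Of the 12 single arrays, leaving out either array of 2 h rat 3, the fluor array of 2 h rat 1, the flip array of 2 h rat 2 or the fluor array of 6 h rat 2, 6 h rat 4 or 6 h rat 6 also ended it (adjusted p from 0.0594 to 0.174). C1qc under the turned reading was at -0.32 at 2 h and -0.043 at 6 h, neither past the threshold. At 2 h, where it missed the threshold, it passed in 8 of 30 settings, among them the fit of the 2 h rats alone (adjusted p = 0.0211).

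C1qb and C1qc, whose products assemble into the same molecule, were compared within rats. C1qb minus C1qc was -0.025, 0.24 and 0.12 at 2 h and 0.45, 0.16 and -0.11 at 6 h. C1qc was thus the lower of the pair in 4 of 6 rats. The mean of 0.14 ± 0.20 (SD, n = 6) was not distinguishable from 0 by a two-sided exact sign-flip permutation test (p = 0.156, adjusted over the 2 gene pairs 0.219). With the flip arrays turned it was 0.030 ± 0.279, and C1qc was again the lower in 4 of 6 rats (exact sign-flip permutation p = 0.844, adjusted 0.844).

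Values that moved with the C1q genes were looked at on the same arrays. On each array 242 to 298 of 7200 probes shared 1 repeated value, and no intensities were at hand to show whether a spot lay above background. None of the 4 genes equalled that value on any array, though Tlr3 came within 0.00043 of it on 1 array. The repeated value was lower on the fluor than on the flip array in 6 of 6 rats (means of -0.28 and 0.25), as were C1qb in 6 and C1qc in 5. Averaged over the arrays of a time it was -0.23 at 2 h and 0.20 at 6 h, while the C1qb mean was -0.20 and -0.21. Its part in the C1q ratios was not tested.

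Of 24 listed marker genes of monocytes and macrophages other than C1qb and C1qc, 4 were among the named genes, and Cd14, Csf1r, Cd68 and Cd163 were not analysed here. At 2 h the 4 had means from -0.23 to -0.015 and none passed in limma, with 0 also at an unadjusted p under 0.05. Ctss, a lysosomal protease gene and the lower end of that range, sat on the repeated value on 11 of 12 arrays. It had no ratio of its own at 2 h, where its -0.23 is the mean repeated value. At 6 h it had 1, of 2.59 on the flip array of rat 4. At 6 h the 4 means ran from -0.010 to 0.56, the upper end being Ctss, whose mean is set by that array and the repeated value. Of the 4, 1 rose at 6 h: Fcgr2b, an inhibitory Fc receptor gene also made by B cells (0.24 ± 0.09, adjusted p = 0.00658; -0.085 under the turned reading). The lysozyme gene Lyz2 stood at -0.070 ± 0.130 and -0.010 ± 0.038, and Lgals3, which encodes galectin-3, at -0.015 ± 0.041 and 0.14 ± 0.23. With the flip arrays turned Lyz2 passed at 6 h (-0.14), as did Ctss (-0.64), again through that 1 array and the repeated value.

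Lists for other blood cells were few in measured genes, and their counts stand beside 19.2% of all genes past the threshold at 2 h and 19.0% at 6 h. Of 4 neutrophil genes 3 rose at either time (list medians 0.66 and 0.67). Lcn2 and Il1r2 among them had also been checked for the direction of the ratios. Of 3 natural killer cell genes 2 rose at either time (0.42 and 0.27). These were Gzmc and Il2rb at 2 h, and Gzmc and Prf1 at 6 h. Of 4 T cell genes 2 fell at either time (-0.31 and -0.18), and of 2 B cell genes 2 fell at 2 h and 1 at 6 h (-0.29 and -0.41). Ccr7, the 1 dendritic cell gene, fell at 6 h, and of 2 platelet genes 1 rose at 2 h. Of 6 erythroid genes 3 rose and 1 fell at 2 h, and 2 fell at 6 h. The median over all genes was -0.0070 at 2 h and 0.0069 at 6 h.

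Several of these marker calls were lost in limma when a rat was left out. Without 2 h rat 2 neither T cell gene passed at 2 h (Cd3d, adjusted p = 0.0707; Lef1, 0.0805). Cd3d was also lost there without 2 h rat 1 (0.0537) and Lef1 without 2 h rat 3 (0.0539), and at 6 h Lef1 was lost without 6 h rat 2 (0.0739). The B cell gene Blnk missed the threshold at 2 h whichever of the 6 rats was left out (0.0519 to 0.176). Lcn2, a neutrophil gene, was lost at 6 h without 6 h rat 2 (0.0556). Ccr7 was lost without any 1 of the 6 h rats or 2 h rat 3, and the platelet call without any 1 rat other than 2 h rat 3. The erythroid counts came to 1 rose and 0 fell at 2 h without 2 h rat 2, and to 0 at 6 h without 6 h rat 2 or 6 h rat 4. The natural killer cell counts were 2 at both times without any 1 rat, with Gzmc the only gene called at both.

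None of the neutrophil, T cell, B cell, dendritic cell or platelet calls was kept with the flip arrays turned. The neutrophil genes S100a9, Lcn2 and Il1r2 were then at 0.14, -0.15 and 0.25 at 2 h and 0.24, 0.059 and -0.094 at 6 h. The genes of these lists that passed instead had not been called before: S100a8 at 0.13 at 6 h, Tcf7 at -0.86 at 2 h, Cd5 at -0.15 at 6 h, and Pf4 at 0.20 at 2 h and 0.25 at 6 h. Gzmc, a granzyme gene of the natural killer cell list, kept its call at 6 h (0.42) and not at 2 h, and Il2rb passed below 0 at 6 h (-0.15). Of the 6 erythroid genes 2 passed above 0 and 1 below at 2 h, and 3 above and 1 below at 6 h. These genes were named for their part in the counts, after their values were seen. In RNA of whole samples, fewer cells of a type and less RNA per cell cannot be told apart, and the part of cell composition in the C1q ratios was not tested.

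Tlr4, the LPS receptor, stood near its pool at 2 h and was higher at 6 h. The 2 h rats 1, 2 and 3 stood at 0.013, -0.025 and -0.024. The 6 h rats 2, 4 and 6 stood at 0.11, 0.13 and 0.28. Rat 6 lay apart from the other 6 h rats. At 2 h the mean was -0.012 ± 0.022 (SD, n = 3; 95% interval -0.11 to 0.081; limma adjusted p = 0.845). At 6 h Tlr4 rose, at 0.17 ± 0.09, a ratio of 1.13 (95% interval 0.080 to 0.27; adjusted p = 0.0247). The difference between the times was 0.18 ± 0.06 (SE; 95% interval 0.053 to 0.32), which did not pass over all genes (adjusted p = 0.203). In that comparison 0.508% of genes passed, 20 of 3939, with 0.330% above 0 (13 genes) and 0.178% below (7). After centring and scaling 5 lay above and 9 below, and after quantile normalization 3 and 5.

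At 6 h Tlr4 was above 0 on 6 of 6 arrays. The fluor arrays gave 0.076, 0.11 and 0.11 in rats 2, 4 and 6, and the flip arrays 0.15, 0.14 and 0.46. The flip array of rat 6 was the highest of the 12, and without it the mean was 0.11 and still passed. At 2 h the fluor arrays read 0.056, -0.019 and 0.025 and the flip arrays -0.030, -0.031 and -0.074. Fluor minus flip was -0.042 ± 0.165 over the 6 rats (SD; two-sided exact sign-flip permutation p = 0.781, adjusted 0.781), larger in size than in 18.8% of genes.

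The Tlr4 call at 6 h rested on all 3 rats. It was lost without rat 2 (0.20, limma adjusted p = 0.0636), without rat 4 (0.20, 0.0604) and without rat 6 (0.12, 0.0961), and also without the flip array of 6 h rat 4 (0.0532) or the fluor array of 6 h rat 6 (0.0643). Of the 20 probes nearest to Tlr4 in the annotation's numbering, 10 on each side, 16 had means above 0 at 6 h and 12 at 2 h, and their median averaged 0.099 and 0.057. With that median subtracted Tlr4 was at 0.074 at 6 h and did not pass (adjusted p = 0.239). From the fluor arrays alone it was at 0.098 (adjusted p = 0.0803). The turned reading gave -0.075 (adjusted p = 0.128), a value that restates the fluor minus flip difference of that time. The direction of Tlr4 is thus given for the ratios as deposited.

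Tlr3, the receptor for double-stranded RNA, stood near its pool at both times. Its rat means were 0.037, 0.00031 and -0.029 in 2 h rats 1, 2 and 3, and -0.087, 0.031 and 0.036 in 6 h rats 2, 4 and 6. Rats lay on both sides of 0 at either time, and the ranges of the times overlapped. The means were 0.0029 ± 0.0333 at 2 h (SD, n = 3; limma adjusted p = 0.958) and -0.0068 ± 0.0699 at 6 h (adjusted p = 0.904). The 95% intervals of -0.080 to 0.085 and -0.089 to 0.076 bound the ratio to the pool, and the difference between the times was -0.0096 ± 0.0494 (SE; 95% interval -0.13 to 0.11; adjusted p = 0.956).

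At 6 h the 2 orientations of Tlr3 parted by a like amount in each rat. The fluor arrays read 0.0033, 0.13 and 0.13 in rats 2, 4 and 6, and the flip arrays -0.18, -0.070 and -0.056. Fluor minus flip was 0.19 ± 0.01 (SD, n = 3) at 6 h and 0.024 ± 0.085 at 2 h, and over 6 rats 0.11 ± 0.11 (two-sided exact sign-flip permutation p = 0.0938, adjusted 0.188). At 2 h the fluor arrays read 0.0082, 0.056 and -0.019 and the flip arrays 0.067, -0.055 and -0.039. Under the turned reading, which restates the fluor minus flip difference, Tlr3 was at 0.095 at 6 h and passed (limma adjusted p = 0.0223). This was the single setting of 30 in which it did. As deposited, it passed at neither time.

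**Figure D2:**
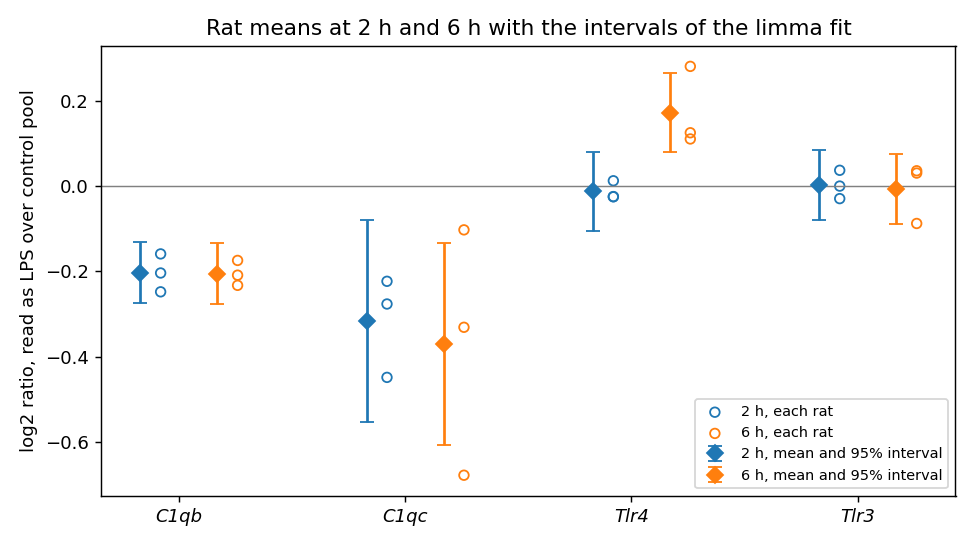
Rat means of C1qb, C1qc, Tlr4 and Tlr3 as log2 ratios read as LPS over control pool (open circles, 3 rats per time) with the mean and 95% interval of the limma fit (diamonds and bars) at 2 h and 6 h. The C1qb intervals are alike at the 2 times and below 0, and the Tlr3 intervals span 0. The Tlr4 interval spans 0 at 2 h and lies above 0 at 6 h.

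Within rats, Tlr4 minus Tlr3 was -0.025, -0.025 and 0.0048 at 2 h and 0.20, 0.095 and 0.24 at 6 h. All 3 rats at 6 h had the higher ratio for Tlr4, and 1 of 3 at 2 h. Over both times the mean difference was 0.082 ± 0.118 (SD, n = 6; two-sided exact sign-flip permutation p = 0.219, adjusted 0.219), and with the flip arrays turned -0.074 ± 0.124 (p = 0.188, adjusted 0.375). The 3 rats of 1 time are too few for an exact test of that kind to pass the threshold.

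In all, 1 of the 4 genes passed limma's threshold at 2 h, against 19.2% of all genes, and 3 of 4 at 6 h, against 19.0%. Calls below 0 made up 9.82% of all genes at 2 h and 10.7% at 6 h, and calls above 0 9.34% and 8.30%. The share at 2 h was thus near that of all genes. With the flip arrays turned, 0 of the 4 genes passed in limma at 2 h, against 14.2% of all genes, and 1 of 4 at 6 h, Tlr3, against 37.1%. None passed for 6 h minus 2 h by limma, where Tlr4 was the 1 gene of the 4 at an unadjusted p under 0.05 (0.0127). In order of mean ratio at 2 h the genes ran C1qc, C1qb, Tlr4 and Tlr3, and at 6 h C1qc, C1qb, Tlr3 and Tlr4. C1qc and C1qb, and Tlr4 and Tlr3, are neighbours in both of these orders, and neither pair passed the test within the 6 rats. With the flip arrays turned the order was C1qc, C1qb, Tlr3 and Tlr4 at 2 h, and C1qb, Tlr4, C1qc and Tlr3 at 6 h.

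**Figure D3:**
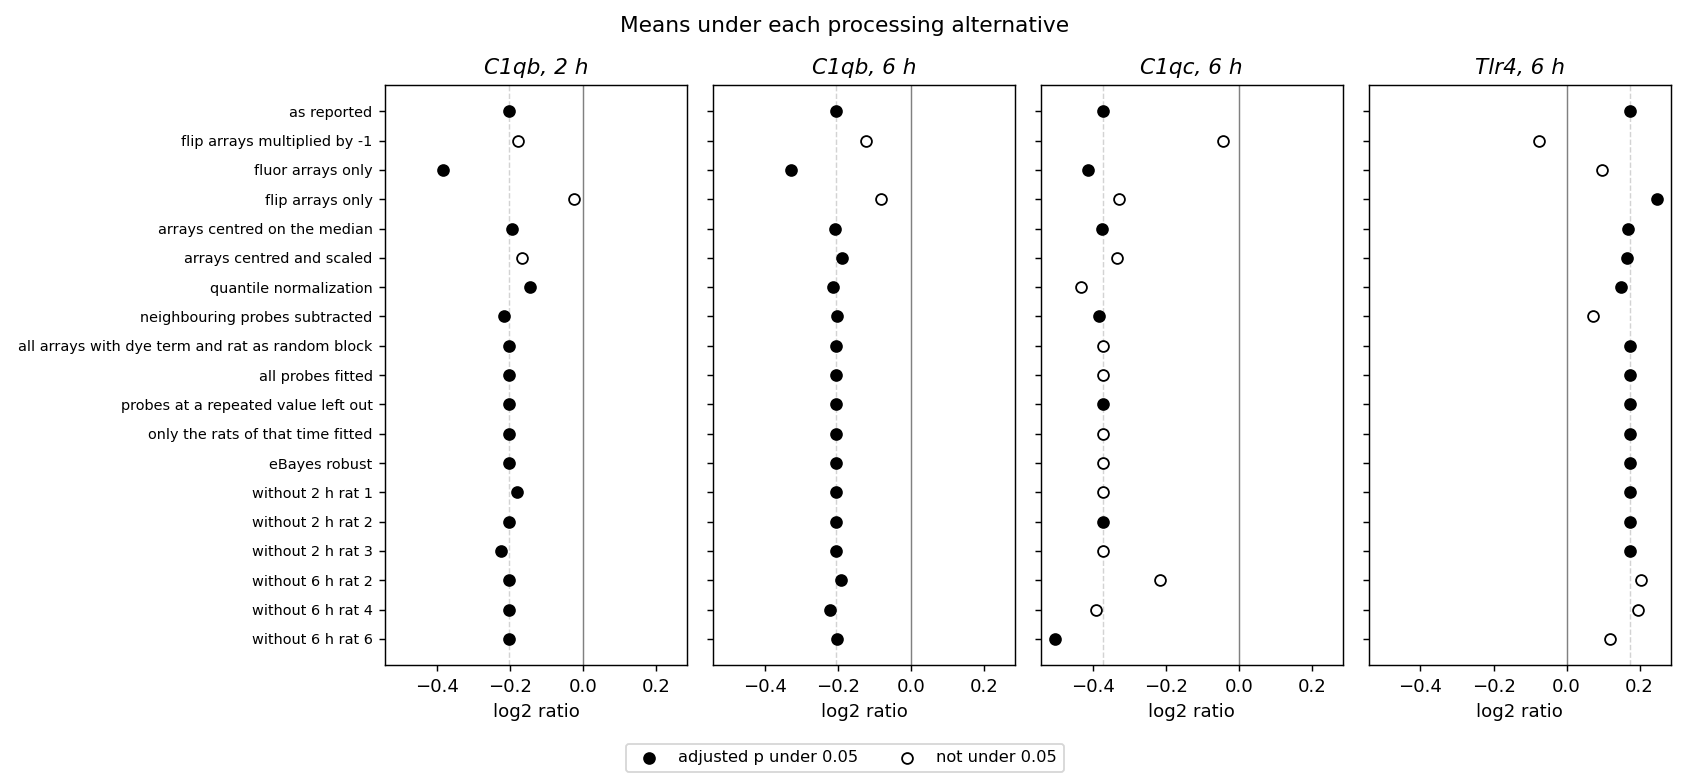
Mean log2 ratio (horizontal axis) of C1qb at 2 h and 6 h, C1qc at 6 h and Tlr4 at 6 h as reported (dashed line) and under each alternative (rows), filled where the limma adjusted p was under 0.05. C1qb stays below 0 throughout but reaches -0.024 from the flip arrays at 2 h, C1qc is open in most rows, and Tlr4 changes sign under the turned reading.

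Complement genes were called in both directions. Of 48 listed complement genes other than C1qb and C1qc, 15 were measured; 3 rose, 1 fell and 11 did not pass at 2 h, and the same counts were found at 6 h. The share called, 26.7% at either time, stands beside 19.2% and 19.0% of all genes. The list's median was 0.092 at 2 h and 0.035 at 6 h, against -0.0070 and 0.0069 over all genes. Downstream of C1q, C1r rose at 2 h (0.22 ± 0.12, limma adjusted p = 0.0245) and stood at 0.035 ± 0.074 at 6 h, while its partner protease C1s stood at -0.060 ± 0.030 and -0.0039 ± 0.0411. The central component C3 was at -0.046 ± 0.049 and 0.024 ± 0.117. C1qbp, which encodes a mitochondrial protein first described as binding C1q, was at -0.12 ± 0.13 and -0.054 ± 0.029. None of C1s, C3 and C1qbp passed at either time as deposited.

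Regulators and terminal components made up the other complement calls. Cfi, the protease that inactivates C3b, rose at 2 h (0.59 ± 0.29, limma adjusted p = 0.0170) and missed the threshold at 6 h (0.37 ± 0.24, 0.0708). C8b, a chain of the membrane attack complex, rose at both times (0.29 ± 0.16 and 0.21 ± 0.02), at 6 h only with all 3 rats of that time and 2 h rat 2 in the fit (limma adjusted p of 0.0443, and 0.0554 to 0.163 without any of them). Cd55, the decay-accelerating factor of cell surfaces, and Mbl1, a mannose-binding lectin that starts the lectin pathway, rose at 6 h (0.21 ± 0.10 and 0.27 ± 0.14). Cr1l, a rodent membrane regulator of C3 convertases, fell at both times (-0.26 ± 0.12 and -0.37 ± 0.04). C4bpb sat on the repeated value on 9 of 12 arrays and gives no usable mean.

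These complement calls depended on few rats. Without 2 h rat 2 none of the 15 genes passed in limma at 2 h, where the adjusted p of the 4 called genes ran from 0.0668 to 0.124. C1r was also lost without 2 h rat 1 (0.0946) and Cfi without 2 h rat 3 (0.0679). Without 6 h rat 2 only the fall of Cr1l remained at 6 h, and Mbl1 was also lost without 6 h rat 6 (0.0702). The Cr1l call at 6 h held in 16 of 16 settings other than the turned reading, and its call at 2 h in 14. These 16 settings left out the omissions of single arrays and the fit of all probes, both included in the 30 settings of C1qc. Under the turned reading, none of the 8 calls passed with the same sign: Mbl1 passed with the other (-0.32), and C8b at 2 h (-0.018) and Cd55 (-0.048) also changed sign. Mbl1 was at -0.046 on the fluor arrays alone. Calls new under the turned reading were C1s at 2 h and 6 h (-0.12 and -0.19), and C1qbp (-0.34) and Mbl1 (-0.31) at 2 h. At 6 h C1r (0.23) and Vtn (-0.13, named after its value was seen) were also new.

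Around the Toll-like receptors, 19 of 84 listed pathway genes other than Tlr3 and Tlr4 were measured. At 2 h 4 rose, 5 fell and 10 did not pass, and at 6 h 2 rose, 3 fell and 14 did not pass. These are 47.4% and 26.3% of the list, beside 19.2% and 19.0% of all genes. Leaving out 1 of the 2 h rats brought the 2 h counts to 2 rose and 2 fell (rat 1), 1 and 2 (rat 2) or 2 and 1 (rat 3), and leaving out a 6 h rat to 3 and 3 (rat 2), 4 and 2 (rat 4) or 3 and 2 (rat 6). At 6 h 1 rose and 1 fell without 6 h rat 2. The list's medians were -0.0037 and -0.064. All 3 measured partners of the receptors fell at 2 h: Ly86 (MD-1, partner of the receptor homologue RP105) at -0.15 ± 0.02, Unc93b1 (which carries Tlr3 and other receptors to endosomes) at -0.14 ± 0.08, and Cnpy3 (a folding chaperone of Toll-like receptors) at -0.28 ± 0.18. Ly86 and Unc93b1 were singled out after their values were seen. At 6 h the 3 were at -0.093, -0.11 and 0.11, and none passed in limma, with 2 at an unadjusted p under 0.05. These falls were small: no more than 1 of the 3 passed with any 1 of the 2 h rats left out. The spread of the 6 h rats counted too, since Unc93b1 missed the threshold without any 1 of them (limma adjusted p from 0.0576 to 0.0756) and Cnpy3 without 6 h rat 4 or 6 h rat 6 (0.0669 and 0.0607). Cnpy3 also missed the threshold after median centring (-0.27, adjusted p = 0.0547) and stood at 0.048 under the turned reading. Myd88, Cd14, Lbp and Ly96 were not analysed here.

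Kinases of the pathway moved in both directions. At 2 h Map2k6 (0.31 ± 0.13) and Map2k3 (0.29 ± 0.14), the kinases that activate p38, rose, whereas Mapk14, which encodes p38 alpha and was singled out after its value was seen, fell at 2 h (-0.13 ± 0.06) and was named by rule at 6 h (-0.18 ± 0.03). Rac1, a small GTPase, fell at 6 h (-0.20 ± 0.06), with its 2 probes at -0.022 and -0.37. Map2k3 and Map2k6 both missed the threshold without 2 h rat 2 (0.21 and 0.28, limma adjusted p = 0.122 and 0.0516), and Map2k3 also without 2 h rat 1 or 2 h rat 3 (0.0553 and 0.0504). Mapk14 at 2 h missed it whichever of the 6 rats was left out (0.0587 to 0.170), and at 6 h without 6 h rat 2 or 6 h rat 6 (0.0780 and 0.0740). Rac1 missed it without 6 h rat 2 (0.0535) and was at 0.057 under the turned reading.

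Inhibitors and outputs differed widely in size. Of 3 measured inhibitors, Sigirr, which damps signalling of the receptors, rose at 2 h (0.13 ± 0.05, limma adjusted p = 0.0402; named after its value was seen; lost without any 1 of the 2 h rats, 6 h rat 2 or 6 h rat 6), with no call on any of the 3 at 6 h. Nfkbia, the NF-kappaB inhibitor, was at 0.012 ± 0.059 and -0.11 ± 0.05. Of the factors, Nfkb1 was at 0.11 and -0.099 and Irf3, which acts downstream of TRIF, at -0.12 and -0.10, and neither passed. Il1b and Ccl5, 2 of the 3 measured outputs, stood far outside the range of the receptors: Il1b rose by 3.90 ± 0.31 at 2 h and 2.05 ± 0.13 at 6 h, while the chemokine gene Ccl5 fell (-0.67 ± 0.30 and -1.07 ± 0.13). The turned reading gave 0.30 and 0.22 for Il1b and 0.17 and 0.25 for Ccl5, none past the threshold. Tnf was at -0.0037 ± 0.0624 at 2 h and rose at 6 h (0.22 ± 0.05), but missed the threshold without 6 h rat 2 (limma adjusted p = 0.0555). It stood at 0.038 on the fluor arrays alone and at -0.18 under the turned reading, past the threshold. In that reading Map2k3 kept its call at 2 h (0.15). Genes that passed at a time only when turned, named after their values were seen, were Ikbkb (0.17 and 0.24) and Peli1 (-0.092 and -0.14) at 2 h and 6 h. Others were Irf3 at 2 h (-0.18), and Nfkb1 (-0.13), Nfkbib (0.096), Sigirr (0.15) and Cnpy3 (0.18) at 6 h.

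**Figure D4:**
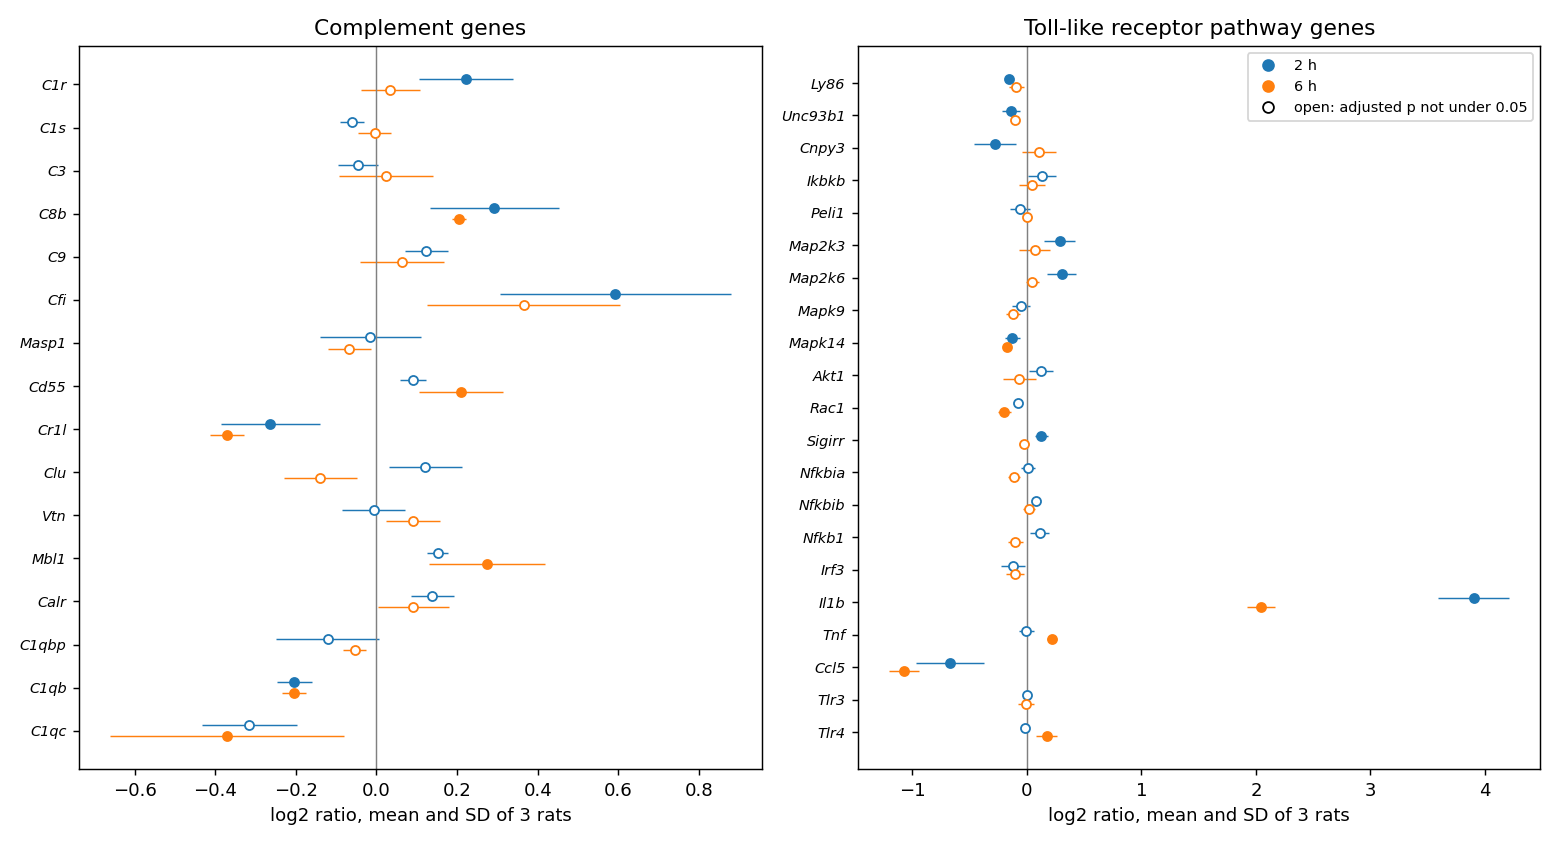
Mean log2 ratio with SD over 3 rats at 2 h and 6 h for measured complement genes and Toll-like receptor pathway genes with the 4 genes described here at the foot of each panel, filled where the limma adjusted p was under 0.05. C4bpb, on the repeated value on 9 of 12 arrays, is left out. Il1b at 3.90 and 2.05 and Ccl5 at -0.67 and -1.07 lie far outside the range of the other genes in the right panel.

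Interferon-inducible genes, which the TRIF arm of Tlr3 and Tlr4 is known to induce through interferon beta, passed the threshold in both directions at both times. Of 12 measured genes of 36 listed, 3 rose and 2 fell at 2 h, and 5 rose and 2 fell at 6 h, with medians of 0.0066 and 0.36. These are 41.7% and 58.3% of the list, beside 19.2% and 19.0% of all genes. Gbp2, a guanylate-binding protein gene, rose at 6 h (1.18 ± 0.17), as did Ifitm3 (0.78 ± 0.11) and Irf1 (0.46 ± 0.10). These 3 calls held without any 1 rat, but under the turned reading Gbp2 was at -0.0059 and Irf1 at -0.030. Ifi27l2b fell at both times (-0.38 ± 0.16 and -0.33 ± 0.17), a call lost at 2 h without 2 h rat 2 or 2 h rat 3 (limma adjusted p = 0.0959 and 0.0591) and at 6 h without 6 h rat 2 or 6 h rat 4 (0.160 and 0.119). The 2 h counts came to 2 rose and 1 fell without 2 h rat 1, 1 and 0 without 2 h rat 2, and 2 and 0 without 2 h rat 3, and Irf1 missed the threshold without any 1 of these rats (limma adjusted p from 0.0520 to 0.0713). At 6 h they came to 4 and 0 without 6 h rat 2, and 3 and 0 without 6 h rat 4. With the flip arrays turned, 2 passed above 0 at 2 h and 4 at 6 h, and none below, in limma. Bst2, an antiviral membrane protein gene that fell at 6 h as deposited (-0.28), was among them, at 0.27.

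Genes were also ranked by likeness to each of the 4, as the root mean square difference of the log2 ratio over the 6 rat means, which share pools and arrays. This is a description, and a small difference says only that the values lie close. Nearest to C1qb were Tbc1d22b (0.020), Atp6ap1 (0.038) and Hmga1 (0.042). C1qc stood in place 1925 (0.23), near the median over all genes (0.23). Nearest to C1qc were Ifi27l2b (0.10), Ddx17 (0.13) and Erf (0.13), with C1qb at 0.23 in place 113. Nearest to Tlr4 were Lalba, Rps29 and Gyg1 (0.046 to 0.057), and nearest to Tlr3 Slc25a29, Dck and Dmap1 (0.017 to 0.028), all near 0 at both times. These places hold for the ratios as deposited. With the flip arrays turned, the 3 nearest genes were others for each of the 4: Nup62, Sh2b3 and Dnaja2 for C1qb (0.039 to 0.046), Psma1, Tmed10 and Tpm4 for C1qc (0.17 to 0.19), Plbd1, Chfr and Tek for Tlr4 (0.027 to 0.032), and Nuak2, Cxcl12 and Eif2d for Tlr3 (0.018 to 0.023). C1qc then stood in place 3020 from C1qb, and C1qb in place 126 from C1qc (0.26).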

How the data were processed

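The deposited table holds 1 value per probe and array, a log2 ratio of the channels. The log base came from the deposited values: raised as powers of 2, ratios on each array were whole multiples of 1e-04 (tolerance 0.05 of a step) in 100% of cases, and as powers of 10 in 8.56% to 10.4%. No source used here states the dyes, scanner, background correction or normalization. Names come from a platform annotation dated 2007, updated by gene identifier: 4190 of 7200 probes had 1 symbol, 46 several and 2964 none. The probes of a gene were averaged (236 of 3939 genes had several). Intensities were not at hand, so dim probes could not be filtered.

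Means of each rat's arrays were analysed in limma 3.58.1 under R 4.3.3 (lmFit, eBayes), with both times in 1 fit and 4 residual degrees of freedom. The fit was tested on simulated rat means, drawn independently for each gene with its own spread. Of 50 genes changed by 0.25 at 2 h, 80% were recovered, and 0.321% of unchanged genes passed. The simulation held no shared pool, dye orientation or correlation between genes, so it does not show how the fit behaves under these. Exact sign-flip permutation tests over rats were two-sided. Precision is limited by how few rats there were at each time, and by the single control pool of each time. The genes and lists were chosen with earlier results of these data known. The text names the 4 genes, at most 5 genes past the threshold per list and comparison (those farthest from 0), preset complement and pathway genes, and the 3 nearest genes by likeness, with exceptions marked. It also names the genes checked for the direction of the ratios. Alternatives covered orientation, scaling, neighbouring probes, the features and samples fitted, the variance model and omissions of single arrays. Those omissions, and the turned values of likeness, gene pairs, order and shares of lower genes, were added after seeing the data.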

Additional observations from a re-analysis of the deposited data

Results flagged for a closer look

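Among the 4 genes and the list genes called as deposited, 2 differed between the times by the test of the difference itself. Il1b was lower at 6 h than at 2 h (difference of -1.86 ± 0.15, SE; limma adjusted p = 0.00735; means of 3.90 at 2 h and 2.05 at 6 h, above 0 on 12 of 12 arrays). Gbp2 was higher at 6 h (0.97 ± 0.11; adjusted p = 0.0265; means of 0.21 and 1.18). Both calls were lost, with the sign kept, after centring and scaling of the arrays (adjusted p = 0.128 for Il1b and 0.0520 for Gbp2), after quantile normalization (0.0856 and 0.0589) and without 6 h rat 2 (0.0554 and 0.0993). Gbp2 was also lost without 2 h rat 1 (0.0779) or 6 h rat 6 (0.0931). From the flip arrays alone both missed the threshold (-1.78, limma adjusted p = 0.0712 for Il1b, and 1.12, 0.0672 for Gbp2). From the fluor arrays alone Gbp2 did too (0.82, adjusted p = 0.200). Under the turned reading the differences were -0.080 for Il1b and -0.15 for Gbp2, which changed sign.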

How the results depend on the processing

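The turned reading gave C1qb at -0.18 at 2 h, -0.12 at 6 h and 0.056 for 6 h minus 2 h, C1qc at -0.043 at 6 h and 0.28 for 6 h minus 2 h, Tlr3 at 0.095 at 6 h and 0.083 for 6 h minus 2 h, and Tlr4 at 0.033, -0.075 and -0.11. From the fluor arrays alone the value was 0.054 for C1qb, 0.22 for C1qc and 0.073 for Tlr3 in 6 h minus 2 h, -0.64 for C1qc and 0.021 for Tlr4 at 2 h, and 0.088 for Tlr3 and 0.098 for Tlr4 at 6 h. From the flip arrays alone it was -0.024 and -0.081 for C1qb, 0.0037 and -0.33 for C1qc, and -0.0092 for Tlr3 at 2 h. With neighbouring probes subtracted it was 0.013 for C1qb in 6 h minus 2 h, 0.049 for Tlr3 and 0.074 for Tlr4 at 6 h. Centring and scaling gave -0.17 for C1qb at 2 h and -0.33 for C1qc at 6 h, and quantile normalization gave C1qc at -0.43. With its 6 h mean of -0.37 unmoved, C1qc missed the threshold with a dye term and random block (limma adjusted p = 0.0784), all probes fitted (0.0650), 6 h rats alone (0.0622) or robust eBayes (0.0516). The 2 h rats alone brought C1qc at -0.32 past it. The causes were not tested.

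Leaving out 1 rat or 1 array, C1qb ranged from -0.32 to -0.087 at 2 h, -0.26 to -0.15 at 6 h and -0.12 to 0.11 between the times, and C1qc from -0.50 to -0.13, -0.50 to -0.22 and -0.24 to 0.13. Tlr3 ranged from -0.016 to 0.021, -0.040 to 0.034 and -0.043 to 0.031, and Tlr4 from -0.029 to 0.0043, 0.11 to 0.23 and 0.13 to 0.24.

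Genes past the threshold at 2 h numbered 755, and 1142 from fluor arrays, 336 from flip arrays and 500 with 2 h rats alone. At 6 h they numbered 749, 1461 under the turned reading and 1202 from fluor arrays. For 6 h minus 2 h the 20 became 0 in limma under the turned reading (484 at an unadjusted p under 0.05), 4 from fluor arrays, 5 from flip arrays, 8 after quantile normalization and 131 with the dye term and random block. Leaving out 1 rat or array gave 219 to 976, 306 to 927 and 0 to 37. No paired analysis was possible because the groups share fewer than 2 replicate numbers. Depth cannot be judged from ratios.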
